A study of Mus musculus with 8 samples.

Results

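The genes described here are 10 mitochondrial chaperones and proteases measured by RNA-seq in DN3 thymocytes, the CD4- CD8- double negative stage at which the T cell receptor β chain is tested. They were chosen by symbol, and all 10 were found among the 16538 genes of the expression table. Hspd1, Hspe1, Hspa9, Trap1 and Dnaja3 encode chaperones, and Lonp1, Clpp, Clpx, Yme1l1 and Htra2 encode proteases or their subunits. The 4 control libraries came from Sel1l-f/f mice without Cre, which the sample titles call WT, and the 4 Sel1l CKO libraries came from Sel1l-f/f hCD2cre+ mice. Both groups were C57BL/6, were 6 weeks of age and carried the floxed Sel1l alleles, so that the Cre transgene was the labelled difference. Sel1l encodes the adaptor of the endoplasmic reticulum (ER) ubiquitin ligase Hrd1 in ER-associated degradation. The hCD2 transgene drives Cre from the earliest thymic progenitors onward, so the DN3 cells of the CKO had passed earlier stages with Cre active. The study's methods describe replicates as biologically independent unless a legend says otherwise, and the labels tie no library to an animal. The p values measure the spread between these libraries.

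Most mitochondrial proteins are made in the cytosol, cross both membranes unfolded and fold in the matrix, where the Hsp70 Hspa9 (mortalin) pulls them in and the Hsp60 and Hsp10 barrel of Hspd1 and Hspe1 encloses them. Proteins that do not fold or assemble are cut by the matrix proteases Lonp1 and ClpXP, by the inner membrane protease Yme1l1 and, in the intermembrane space, by Htra2. When unfolded proteins build up in mitochondria, cells can induce genes of this group, a program known as the mitochondrial unfolded protein response, in which Atf5, Atf4 and Ddit3 (CHOP) have been proposed as regulators. Atf4 and Ddit3 also act in the ER stress response, where the Hsp70, Hsp90 and J-domain relatives Hspa5 (BiP), Hsp90b1 (Grp94) and Dnajb11 are well known targets. The members were compared between the genotypes and, within each library, with these ER relatives.

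The promoters of Hspd1 and Hspe1 are shown first, because both genes are transcribed in opposite directions from 1 shared region of chromosome 1 and their RNA levels are described together. Sequences are from RefSeq (GRCm38.p6) and cover 250 bases before to 50 after a transcript start. They were examined for 8 of the 10 members in 9 windows, and the promoters of Hspa9 and Htra2 were left out. They were searched on both strands for heat shock element pairs (GAANNTTC or TTCNNGAA, the inverted repeat bound by Hsf1), for TGATGNAA (a composite element bound by Atf4 with a C/EBP partner) and for TGACGTGG (an unfolded protein response element of the ER). The window of Hspe1 lies at chr1:55087898-55088197 on the plus strand and that of Clpp, the member with the lowest p in the genotype test, at chr17:56990014-56990313 on the plus strand, and capitals mark the heat shock element matches.
Hspe1: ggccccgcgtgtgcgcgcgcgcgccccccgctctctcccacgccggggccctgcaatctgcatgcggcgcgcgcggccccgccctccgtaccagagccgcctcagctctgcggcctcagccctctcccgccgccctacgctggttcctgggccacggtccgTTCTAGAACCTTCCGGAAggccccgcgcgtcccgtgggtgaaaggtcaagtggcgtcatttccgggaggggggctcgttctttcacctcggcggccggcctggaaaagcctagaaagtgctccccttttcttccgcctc
Clpp: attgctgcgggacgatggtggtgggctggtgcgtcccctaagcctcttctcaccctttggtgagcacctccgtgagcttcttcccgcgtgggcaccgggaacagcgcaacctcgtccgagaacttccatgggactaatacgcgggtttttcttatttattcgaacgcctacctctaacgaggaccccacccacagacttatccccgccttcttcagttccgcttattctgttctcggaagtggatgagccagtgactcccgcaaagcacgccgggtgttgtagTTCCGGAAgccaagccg
The 18 bases in capitals in the Hspe1 window hold 3 overlapping pairs, run from 55088059 to 55088076 and end 72 bases before the transcript start of Hspe1. There are 2 Hspd1 windows, whose starts lie 216 and 95 bases from that of Hspe1. The first holds the same stretch, read from the other strand, 127 bases from its start, and the second holds no pair. The start of the second, 55088243, is also that of the annotated Hspd1 span, so the stretch lies inside that span. The 3 pairs form a run of 4 adjoining units, which was present in 8 of all 32851 promoter windows (0.0244%) and in 0.0614% of the windows of genes tested here, the windows of Hspd1 and Hspe1 included, while a run of at least 3 units was present in 0.603% and 0.706%. The single pair of the Clpp window lies after the RefSeq start and just before the GENCODE start, and such a pair was present in 15.1% of all windows and 11.9% of those of tested genes. None of the 9 member windows held TGATGNAA, present in 3.97% of all windows, or TGACGTGG, present in 0.676%. The motif content of the Hspa9 and Htra2 promoters is therefore not known here. A match describes these letters only, and no binding was measured.

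In control DN3 thymocytes 4 of the 5 chaperones, all but Dnaja3, were more abundant than the proteases when RPKM (reads scaled by gene length and library depth) was recalculated on exon length, the scale used for comparing genes. Hspd1 averaged 314.5 ± 31.7 (SD, n = 4 libraries throughout), Hspe1 183 ± 31.4, Hspa9 120 ± 6.11 and Trap1 98.1 ± 4.91, and each of these differed from the next without overlap between control libraries. Lonp1 at 37.1 ± 3.44 and Clpp at 33.3 ± 0.885 overlapped with each other and lay below Trap1. Dnaja3 at 14.4 ± 1.69, Clpx at 13.8 ± 0.457, Htra2 at 13.6 ± 0.934 and Yme1l1 at 11.5 ± 0.960 formed the lower end, where each overlapped with its neighbour. Clpx, the ATP-dependent unfoldase that feeds the Clpp peptidase, was at 0.313 to 0.431 of the level of Clpp across the 8 libraries on this scale.

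**Figure D1:**
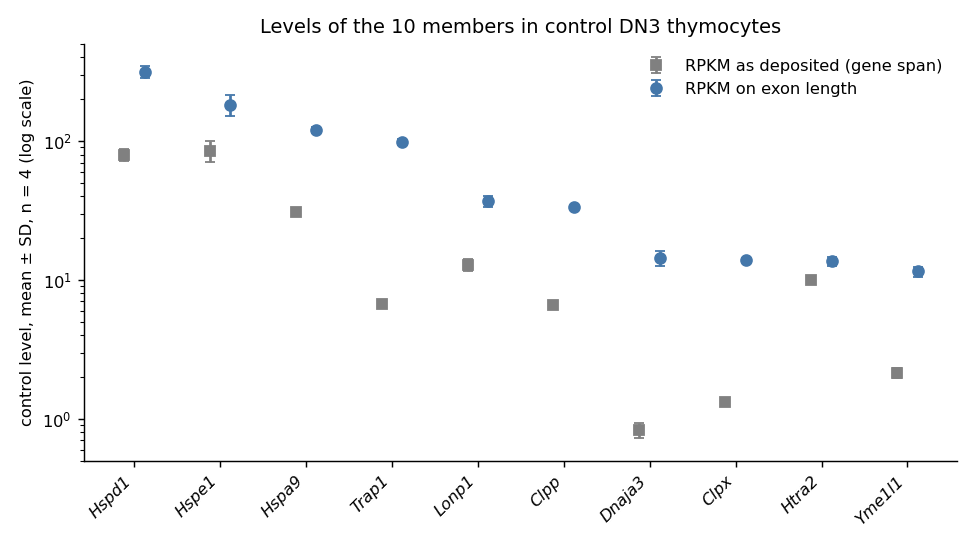
Control levels of the 10 members on a log axis, as mean ± SD of 4 libraries, with grey squares for RPKM as deposited and blue circles for RPKM on exon length. Hspd1 was highest on exon length and Yme1l1 lowest, whereas Hspe1 was highest and Dnaja3 lowest on the deposited scale.

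The deposited RPKM values were scaled by the authors on what matched the whole gene span, introns included, for 77.2% of genes, which lowers long genes such as Dnaja3. That deposited scale is the one used for the other values unless exon length is named. This scaling cancels in a comparison of the genotypes for 1 gene. Depth was 32900000 to 50401000 reads counted per library, as recovered from the RPKM steps and rounded, and the members' reads in 1 library ranged from 1272 for Htra2 to 40691 for Hspd1. The 4 control libraries held Sel1l at 1.83, 1.66, 1.61 and 1.57 RPKM (replicates 1 to 4) and the 4 CKO libraries at 0.918, 0.876, 1.32 and 1.23, lower in every CKO library (log2 fold change -0.59, SE 0.13, limma adjusted p 0.0327). Its difference was -0.89 between the libraries numbered 1 and 2 and -0.30 between those numbered 3 and 4, and since reads from any part of the gene count, transcripts that lack only the deleted part still count. The call for Sel1l was lost in 10 of 22 alternatives, among them replicates 3 and 4 only (limma adjusted p 0.199). It was also lost without any 1 of the control libraries or without CKO replicate 1 or 2 (adjusted p up to 0.0984).

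The labelled stage was checked on marker genes. All 14 DN3 markers passed the filter, limma called none of them, and limma voom called Cd3e alone. By limma, 8 had an unadjusted p under 0.05, against 20.8% of all tested genes. Most were lower, with 12 of 14 log2 fold changes below 0 (median -0.27, lowest -1.05), against 3087 of all 6512 tested genes. In 5 every CKO library lay below every control library, an order whose share over all tested genes is not given here. Cd3e (log2 fold change -0.31, limma adjusted p 0.0578) and Bcl11b (-0.38, adjusted p 0.0924) had the lowest p, and the summed level of the list was 560 to 666 RPKM in control and 470 to 522 in the CKO. Limma called Hes1 lower within replicates 3 and 4 alone and with the replicate number as a block, and Notch3 lower within replicates 1 and 2 alone. Of the markers of other cells, only Cd8a of double positive thymocytes, Cd79b of B cells, Lyz2 of myeloid cells, Nkg7 of natural killer cells and Epcam of epithelium passed the filter, and Epcam fell (log2 fold change -0.95, adjusted p 0.00273). Cd8a (0.23, adjusted p 0.728), Cd79b (-0.40, adjusted p 0.129), Lyz2 (-0.86, adjusted p 0.0611, called by voom) and Nkg7 (-0.30, adjusted p 0.242) were not called, and their summed lists ran from 1.70 to 3.57, 8.22 to 10.2, 2.15 to 2.48 and 31.1 to 38.3 RPKM in control and from 1.94 to 4.399, 5.32 to 8.22, 0.667 to 1.56 and 21.7 to 33.9 in the CKO. The defining genes Cd4, Cd79a, Ms4a1, Pax5, Itgam, Csf1r, Krt5, Foxn1 and Klrb1c and the erythroid globins averaged under 1 RPKM in both groups. These means are on the deposited scale, which lowers long genes. On exon length 3 of the 4 double positive markers passed the filter, and limma called none of them. For the other lists of other cells the number that passed did not change. The part of the marker differences in the values of the members was not tested. In bulk RNA, fewer cells of a type and less RNA per cell cannot be told apart.

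None of the 9 members that passed the filter of a mean RPKM of at least 1 was called between the genotypes at an adjusted p under 0.05, against 5.28% of the 6512 genes tested (344 genes, 278 higher and 66 lower in the CKO). With limma's moderated test on log2(RPKM + 0.1), Benjamini-Hochberg adjusted over all tested genes, their adjusted p ran from 0.198 to 0.927 and their median log2 fold change was -0.01, beside 0.01 over all tested genes. At an unadjusted p under 0.05 there was 1 member, Clpp, against 20.8% of tested genes, and limma voom on the recovered reads, which tested all 10, called none either (2 at an unadjusted p under 0.05). In 2 of the 9, Hspa9 and Clpp, every CKO library lay above every control library, an order found in 9.15% of tested genes. No member had every CKO library below the controls. The log2 fold changes of the 9 ran from -0.26 to 0.22.

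**Figure D2:**
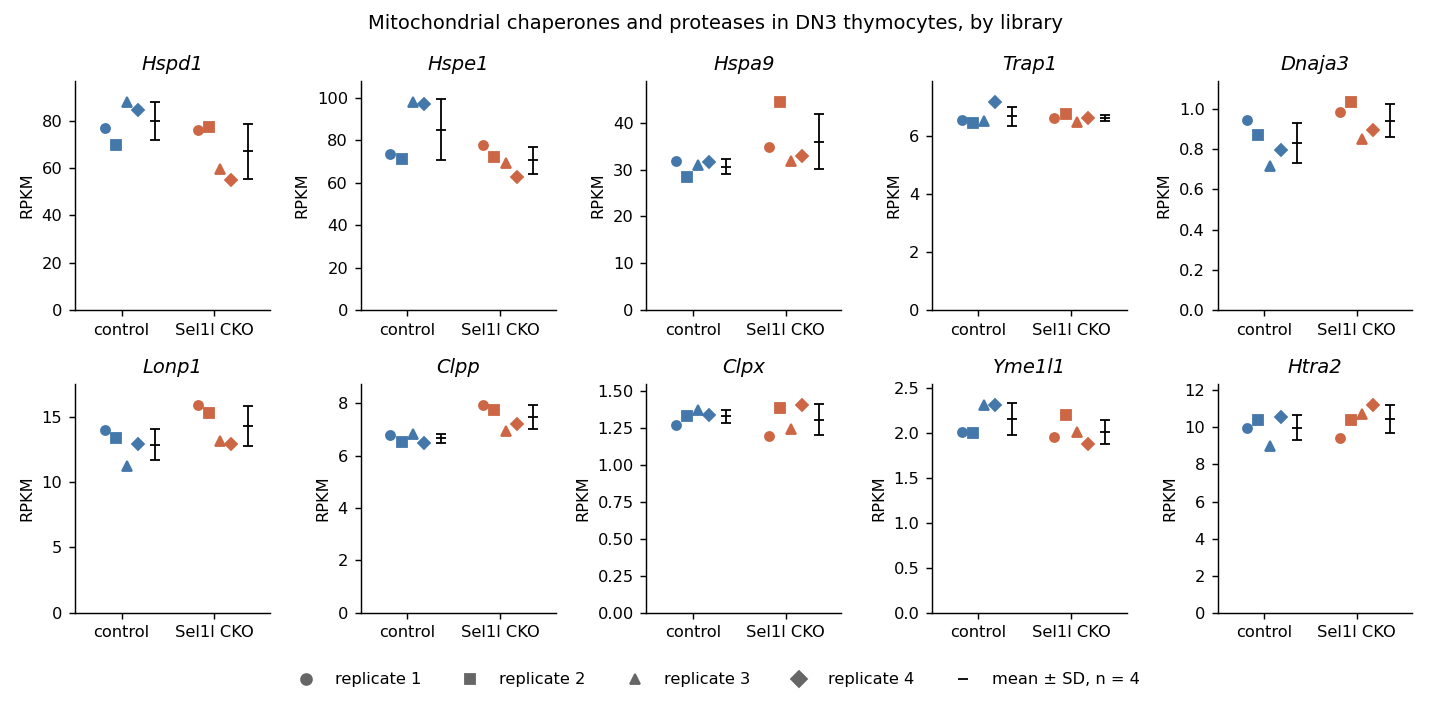
RPKM of the 10 members in each library, with a panel for each gene, control in blue, Sel1l CKO in orange, a marker shape for each replicate number and a bar for mean ± SD (n = 4). Each vertical axis starts at 0. The groups overlap in 7 of the 9 tested members, and Hspd1 and Hspe1 in replicates 3 and 4 show the widest gap between the genotypes.

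Hspd1 and Hspe1 encode the Hsp60 and Hsp10 subunits of the matrix folding chamber. Hspd1 (chromosome 1, 55077835 to 55088243, minus strand) had 77.0, 69.9, 88.0 and 84.4 RPKM in the control libraries, in the order of their replicate numbers as in all sentences of this kind, and 76.2, 77.6, 59.5 and 54.9 in the CKO libraries. Hspe1 (chromosome 1, 55088132 to 55091307, plus strand) was at 73.5, 71.4, 98.1 and 97.3 in control and at 77.6, 72.2, 69.5 and 62.6 in CKO. The groups overlapped for both genes, because control replicates 3 and 4 were the highest and CKO replicates 3 and 4 the lowest, while replicates 1 and 2 of both genotypes lay together. Over all libraries the log2 fold change was -0.26 for Hspd1 (SE 0.13, 95% interval -0.55 to 0.02, limma adjusted p 0.282) and -0.26 for Hspe1 (SE 0.12, interval -0.54 to 0.02, adjusted p 0.272). In both genotypes the RPKM ratio of Hspd1 to Hspe1 was 0.98 to 1.07 in the libraries numbered 1 and 2. It was lower, at 0.856 to 0.897, in those numbered 3 and 4. Their annotated spans overlap by 112 bases on opposite strands, and whether counting used strand is not stated in the sources used here.

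Since the libraries numbered 1 and 2 differed from those numbered 3 and 4 in many genes, the genotype was also compared within each pair of numbers. Between replicates 1 and 2 the log2 difference was 0.07 for Hspd1 (limma adjusted p 0.591) and 0.05 for Hspe1 (adjusted p 0.687). Between replicates 3 and 4 it was -0.59 for Hspd1 (SE 0.08, adjusted p 0.018) and -0.57 for Hspe1 (SE 0.08, adjusted p 0.024), so that both fell there, against 0.998% of tested genes that were called lower in those 4 libraries. The change in the genotype difference from the first pair of numbers to the second was -0.66 for Hspd1 (SE 0.11, adjusted p 0.068) and -0.61 for Hspe1 (SE 0.11, adjusted p 0.0781). This interaction missed the threshold for both genes, which ranked 34 and 47 by p of 6512, and 0.276% of tested genes passed it. The labels name no batch for these numbers. With limma array weights over all 8 libraries, Hspd1 alone of the members was called (log2 fold change -0.40, adjusted p 0.0295).

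Cytosolic heat shock genes and immediate early genes differed in level along this split. Of 13 tested cytosolic heat shock genes, 6 fell and none rose in the CKO, with a median log2 fold change of -0.53. The 6 were Hspa1a and Hspa1b, near-identical inducible Hsp70 genes whose reads may be shared, and Hsph1, Dnaja1, Hsp90aa1 and Chordc1, of which Hsph1 had the lowest adjusted p (log2 fold change -0.98, SE 0.16, limma adjusted p 0.00786). Limma voom also called 6, but lost Hspa1a (adjusted p 0.113) and Hspa1b (adjusted p 0.0722) and called Ahsa1 and Hspa4l in their place. The mean of these 13 genes, on the log2 scale relative to the control mean, was -0.30, -0.62, 0.44 and 0.49 in control replicates 1 to 4 and -0.94, -1.12, -1.32 and -1.23 in the CKO. Control replicates 3 and 4 thus stood above all other libraries for this list, as for Hspd1 and Hspe1, and Hspa1a was at 460.5 and 1059 RPKM there against 50.5 and 16.1 in control replicates 1 and 2. Of 9 tested immediate early genes, which are transcribed soon after stimulation of a cell, Btg2 fell (adjusted p 0.0466), and their mean was -0.95, -1.14, 1.09 and 1.001 in control and -1.43, -1.83, -0.38 and -0.30 in the CKO. Within replicates 3 and 4 alone, 8 of the 9 immediate early genes fell, all but Fosb, and within replicates 1 and 2 alone 3 fell (Jun, Egr1 and Dusp1), where 4.41% of tested genes were called lower. The count of 1 over all libraries thus rests on a spread that includes the split. The part of these genes in the values of Hspd1 and Hspe1 was not tested.

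**Figure D3:**
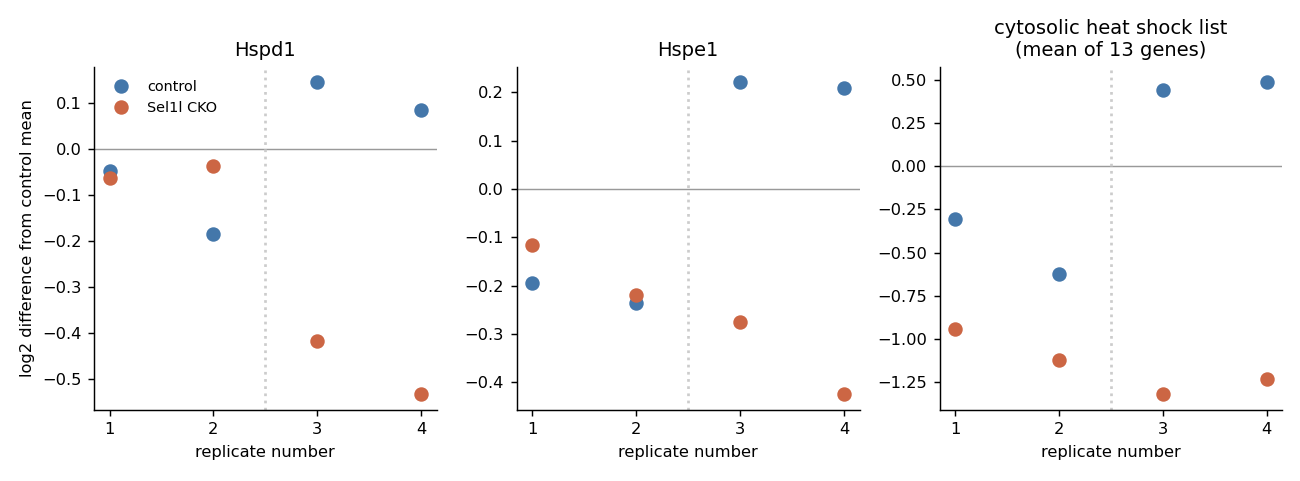
Log2 difference from the control mean in each library by replicate number, for Hspd1, Hspe1 and the mean of 13 cytosolic heat shock genes, with control in blue and Sel1l CKO in orange. In all 3 panels control replicates 3 and 4 are the highest points, and for Hspd1 and Hspe1 the genotypes lie close together at numbers 1 and 2. The dotted line separates replicates 1 and 2 from 3 and 4, and vertical scales differ between panels.

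Among all 6511 other tested genes, those whose profile over the 8 libraries lay closest to Hspd1 were Cacybp, Nefh, Rangrf, Nsg2 and Xpo1, by the root-mean-square difference of log2 values centred on each gene. That difference was 0.0766 for Cacybp, the closest, and 0.0836 for Xpo1. Hspe1 was at rank 23 with 0.119, Yme1l1 at rank 151 with 0.155 and Hspa9 at rank 3496 with 0.271. The members therefore did not share 1 profile.

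Hspa9, the mitochondrial Hsp70, was at 31.7, 28.4, 30.9 and 31.5 RPKM in control and at 34.8, 44.4, 31.8 and 32.9 in the CKO. Every CKO library lay above every control library, by little except in CKO replicate 2. The means were 30.6 ± 1.55 and 35.96 ± 5.78 (log2 fold change 0.22, SE 0.11, interval -0.02 to 0.46, limma adjusted p 0.275). Within replicates 1 and 2 the log2 difference was 0.39 (adjusted p 0.115), and within replicates 3 and 4 it was 0.05 (adjusted p 0.758).

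Trap1, on the minus strand of chromosome 16 (4039971 to 4077827), encodes the mitochondrial Hsp90 and was at 6.55, 6.45, 6.51 and 7.16 RPKM in control and at 6.62, 6.74, 6.48 and 6.59 in the CKO. The groups overlapped and all 8 values lay close together. Its log2 fold change was -0.01 (SE 0.06, adjusted p 0.927), and the 95% interval ran from a fold of 0.904 to 1.09.

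Dnaja3 (Tid1), a J-domain protein that stimulates the ATPase of Hspa9, was at 0.942, 0.870, 0.716 and 0.793 RPKM in control and at 0.984, 1.03, 0.852 and 0.895 in the CKO. CKO replicates 1 and 2 lay above all controls and the other CKO libraries lay among them. Its mean was under the filter because of its long annotated span of 67707 bases (chromosome 16, 4639989 to 4707695, plus strand), so it had no fit on the deposited scale, and an exact permutation test of its 8 values gave p 0.143. On exon length it passed the filter, with a log2 fold change of 0.18 (SE 0.10, limma adjusted p 0.329). The span contains part of Vasn on the same strand and overlaps Coro7 on the other, which leaves the assignment of some reads uncertain.

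The proteases differed as little. Lonp1, on the minus strand of chromosome 17 (56614297 to 56626887), encodes the ATP-dependent Lon protease of the matrix and was at 14.0, 13.4, 11.2 and 12.9 RPKM in control and at 15.9, 15.3, 13.1 and 12.9 in the CKO. CKO replicates 1 and 2 were above all controls, and CKO replicates 3 and 4 were within their range. The log2 fold change was 0.15 (SE 0.10, interval -0.07 to 0.37, limma adjusted p 0.408). The genes nearest to Lonp1 in profile were Eif4h, Wdr18, Rangap1, F2rl3 and Kpnb1, with a root-mean-square difference of 0.0321 for Eif4h, while Clpp stood at rank 724 of 6511.

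Clpp, the peptidase of the ClpXP complex (chromosome 17, 56990305 to 56996188, plus strand), was at 6.79, 6.52, 6.83 and 6.49 RPKM in control and at 7.95, 7.74, 6.94 and 7.22 in the CKO. The groups did not overlap. The means were 6.66 ± 0.177 and 7.46 ± 0.466 (log2 fold change 0.16, SE 0.06, unadjusted p 0.0339, limma adjusted p 0.198). Clpx, its unfoldase (chromosome 9, 65294260 to 65330658, plus strand), was at 1.27, 1.33, 1.37 and 1.34 in control and at 1.19, 1.38, 1.24 and 1.41 in the CKO. CKO libraries of Clpx were both the highest and the lowest of the 8, and its log2 fold change was -0.03 (SE 0.08, adjusted p 0.878).

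Yme1l1, the i-AAA protease that faces the intermembrane space and cuts the fusion factor Opa1 (chromosome 2, 23156369 to 23199260, plus strand), was at 2.003, 1.99, 2.31 and 2.30 RPKM in control and at 1.95, 2.20, 2.01 and 1.88 in the CKO. The groups overlapped, with control replicates 3 and 4 highest, and the log2 fold change was -0.09 (SE 0.08, adjusted p 0.533). Htra2 (Omi), a serine protease of the intermembrane space that can bind inhibitors of apoptosis once released, was at 9.97, 10.4, 9.02 and 10.5 in control and at 9.42, 10.4, 10.7 and 11.2 in the CKO (chromosome 6, 83051266 to 83055273, minus strand). Its groups overlapped, with a log2 fold change of 0.06 (SE 0.08, adjusted p 0.674). Htra2 overlaps Aup1 and Loxl3 on the other strand, so its reads may include theirs.

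The ER relatives of the chaperones differed from them in the same libraries. Hspa5 (BiP), the ER Hsp70, was at 100.3, 83.3, 132.8 and 113.3 RPKM in control and at 365.2, 311.1, 422.4 and 405.6 in the CKO, and it rose without overlap (log2 fold change 1.82, SE 0.15, limma adjusted p 1.05e-04). Hsp90b1, the ER Hsp90, rose from 32.5 ± 3.61 to 83.0 ± 7.42 (log2 fold change 1.35, SE 0.10). Dnajb11, an ER J-domain protein that works with BiP, rose from 4.11 ± 0.301 to 8.89 ± 0.195 (log2 fold change 1.098, SE 0.07). All 3 of these ER genes were called, and they are a small set chosen as relatives of members with earlier results known.

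Each member was set against its relative within each library, which removes the scaling of the library. The log2 level of Hspa9 minus that of Hspa5 was -1.66, -1.55, -2.10 and -1.84 in control and -3.39, -2.80, -3.73 and -3.62 in the CKO, a difference between genotypes of -1.60 (SE 0.24). The corresponding difference was -1.37 (SE 0.10) for Trap1 minus Hsp90b1 and -0.93 (SE 0.14) for Dnaja3 minus Dnajb11. In all 3 pairs every CKO library lay below every control library. Against cytosolic relatives the differences had the other sign, at 0.51 (SE 0.12) for Hspa9 minus Hspa8, 0.22 (SE 0.09) for Trap1 minus Hsp90ab1 and 1.05 (SE 0.40) for Dnaja3 minus Dnajb1, with every CKO library above every control library. For each of the 6 pairs the exact two-sided permutation test gave p 0.0286 (Benjamini-Hochberg adjusted 0.0286), the smallest that 70 assignments allow. For the 3 ER pairs this order restates the rise of the relatives, known when they were chosen, and is no separate result about the members. Hspa8, Hsp90ab1 and Dnajb1 were themselves not called (limma adjusted p 0.167, 0.165 and 0.103). Their log2 fold changes were -0.29, -0.23 and -0.89, beside 0.22, -0.01 and 0.17 for Hspa9, Trap1 and Dnaja3. The order of the cytosolic pairs thus includes the lower levels of these relatives in the CKO. It is no separate result about the members either. For Dnaja3 minus Dnajb1 the lowest values were those of control replicates 3 and 4, at -6.91 and -6.99, against -5.57 and -5.79 in control replicates 1 and 2. The calls against Hsp90ab1 and Dnajb1 were lost when single libraries were left out, with differences of 0.15 to 0.27 (p up to 0.0571, without any control library or CKO replicate 3) and 0.83 to 1.30 (p up to 0.114, without any CKO library), whereas the calls of the other 4 pairs were kept.

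**Figure D4:**
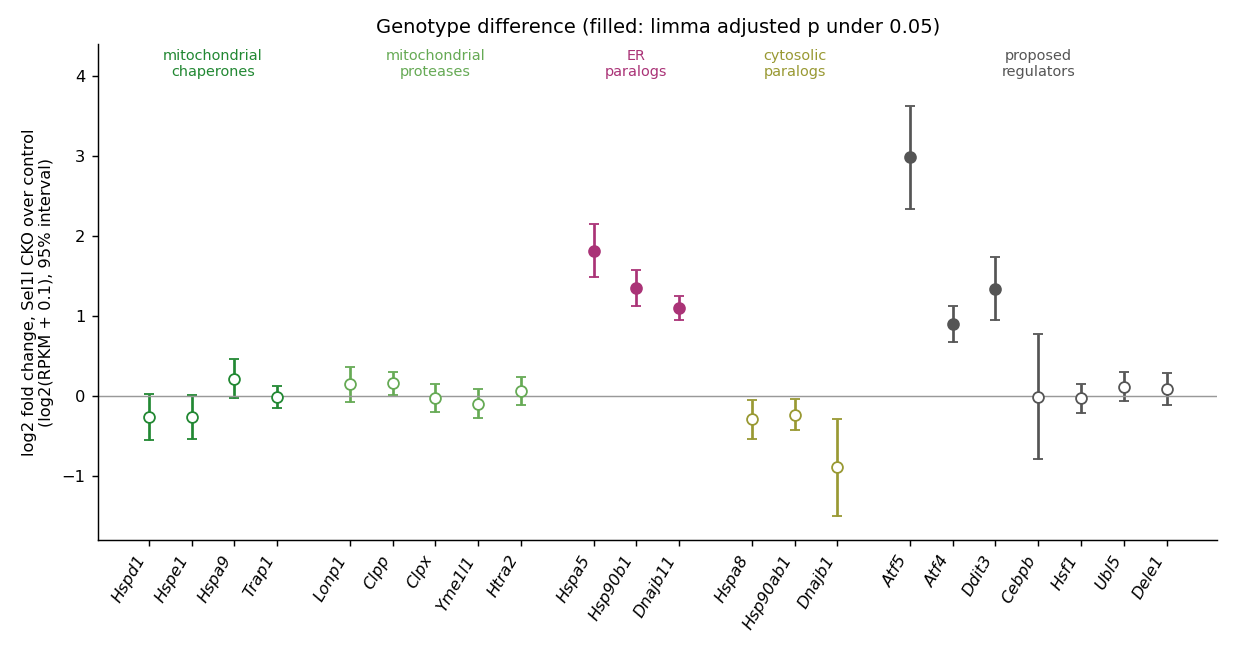
Log2 fold change of Sel1l CKO over control with its 95% interval for the 9 tested members, their ER and cytosolic relatives and the 7 tested regulators, with filled points at a limma adjusted p under 0.05. The members lie between -0.26 and 0.22, the 3 ER relatives between 1.098 and 1.82, and Atf5 at 2.98.

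Of the proposed regulators of the mitochondrial unfolded protein response, 3 of 7 tested genes rose and none fell. Atf5, a bZIP transcription factor that can enter mitochondria, was at 2.995, 3.55, 2.31 and 2.69 RPKM in control and at 14.8, 43.1, 20.4 and 22.3 in the CKO (log2 fold change 2.98, SE 0.28, limma adjusted p 2.59e-04). Atf4, the bZIP factor translated when eIF2α is phosphorylated, was at 105.7, 98.3, 133.8 and 121.1 in control and at 198.3, 210.9, 217.8 and 225.4 in the CKO (log2 fold change 0.90, SE 0.10, adjusted p 5.83e-04). Ddit3 (CHOP) rose from 2.80 ± 0.690 to 7.19 ± 1.14 (log2 fold change 1.34, SE 0.18, adjusted p 0.00178). No control library reached a CKO library in any of the 3. Cebpb, the partner of CHOP (log2 fold change -0.01, interval -0.79 to 0.77), Hsf1, the heat shock factor (-0.03, interval -0.21 to 0.16), Ubl5, a ubiquitin-like protein (0.12, SE 0.08), and Dele1, a mitochondrial protein that relays stress to the kinase Hri (0.08, interval -0.11 to 0.28), were not called. Eif2ak1, which encodes Hri, had a mean under the filter, at 0.903 ± 0.0186 in control and 0.890 ± 0.0315 in the CKO.

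The other genes of mitochondrial protein quality control gave 2 further calls. Among 9 tested partners of Hspa9 and other mitochondrial chaperones (11 in the table), Grpel1, the nucleotide exchange factor of Hspa9, rose, and no gene fell. Grpel1 ranged from 8.54 to 9.23 RPKM in control and from 10.3 to 11.4 in the CKO, without overlap (log2 fold change 0.27, SE 0.06, limma adjusted p 0.0367). This call was lost in 14 of 23 alternatives, including without any 1 of the 8 libraries (adjusted p 0.0513 to 0.114), although the direction was kept. Among 4 membrane scaffolds and protease partners, Hax1, a partner of Htra2 and Clpb, was at 21.2, 21.8, 20.2 and 21.8 in control and at 28.4, 39.1, 33.0 and 33.5 in the CKO and rose (log2 fold change 0.65, SE 0.09, adjusted p 0.00345). The prohibitins Phb and Phb2 had log2 fold changes of 0.01 and 0.02 and Stoml2, another scaffold, one of 0.18, and these 3 were not called. Limma voom called Hax1 and not Grpel1 (adjusted p 0.056). The call for Hax1 was lost in 1 of 23 alternatives, replicates 1 and 2 only (log2 fold change 0.63, limma adjusted p 0.0581).

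By limma, none of the 7 tested proteases and peptidases outside the members was called (15 in the table, 8 under the filter, none at an unadjusted p under 0.05), and the lowest adjusted p among them was 0.536, for Spg7, an m-AAA protease subunit (log2 fold change -0.16). Its relative Afg3l2 had a log2 fold change of 0.06. On exon length all 15 passed the filter, and Immp2l, a subunit of the inner membrane peptidase, fell, from 2.34 ± 0.343 to 1.46 ± 0.156 RPKM on that scale without overlap (log2 fold change -0.64, SE 0.15, limma adjusted p 0.033, voom adjusted p 0.0814), from 82 to 231 reads in a library. Of 20 tested genes of protein import none was called over all libraries, with 5 at an unadjusted p under 0.05. A log2 fold change above 0 was seen in 17 of these 20 (median 0.13), against 3425 of all 6512 tested genes (median 0.01). Timm8a1 was called lower within replicates 3 and 4 alone (log2 difference -0.70, limma adjusted p 0.0133). It also passed the interaction of genotype and replicate set (-1.05, adjusted p 0.0332). Tomm5 was called higher within replicates 1 and 2 alone (0.35, adjusted p 0.046). The mean log2 level of the import list relative to the control mean was 0.23 in CKO replicates 1 and 2 alike, and -0.01 and -0.04 in CKO replicates 3 and 4, within the control range of -0.05 to 0.04. Over all libraries Timm13, a small intermembrane space chaperone, had the lowest adjusted p of that list (log2 fold change 0.24, adjusted p 0.108), followed by Timm23, the channel of the inner membrane (0.28, adjusted p 0.146). Of 5 tested genes around Htra2 in cell death none was called over all libraries, with 3 at an unadjusted p under 0.05. Within replicates 1 and 2 alone Birc6 was called lower (limma adjusted p 0.0209) and Cycs higher (adjusted p 0.0312). Xiap, a caspase inhibitor (log2 fold change -0.28, adjusted p 0.118), and Birc6, a large member of the same family (-0.36, adjusted p 0.135), had every CKO library at or below the controls. Limma voom called no gene of the protease, import and cell death lists or of the mitochondrial lists described next.

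Genes of mitochondrial content and of the mitochondrial genome were not called either with genotype as the only term over all libraries. Among 15 nuclear genes of mitochondrial content none was called by limma, with 1 at an unadjusted p under 0.05 and a median log2 fold change of 0.07, and Cs, citrate synthase, had the lowest adjusted p (log2 fold change 0.22, adjusted p 0.154). The mean log2 level of this list was 0.21 and 0.20 in CKO replicates 1 and 2, above the controls (-0.03 to 0.05), and -0.04 and -0.05 in CKO replicates 3 and 4, below them. Slc25a5 of this list was called higher within replicates 1 and 2 alone (limma adjusted p 0.0398). Of the 13 protein-coding genes of the mitochondrial genome none was called, with 3 at an unadjusted p under 0.05. All 13 had a log2 fold change below 0 (median -0.38), and their mean log2 level relative to the control mean was -0.42, 0.02, 0.56 and -0.16 in control and -0.54, -0.30, -0.26 and -0.65 in the CKO. Control replicate 3 was the highest library for this list and the groups overlapped. mt-Co1, a subunit of cytochrome oxidase, had the lowest adjusted p (log2 fold change -0.46, SE 0.14, adjusted p 0.0982), without overlap between the groups, followed by mt-Atp8 of the ATP synthase, at -0.99 (SE 0.40, adjusted p 0.202). With the replicate number as a block, mt-Atp8 alone of this list was called lower (limma adjusted p 0.0383).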

How the data were processed

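DN3 thymocytes of 4 control and 4 Sel1l CKO libraries were profiled by RNA-seq. The authors made stranded mRNA libraries, aligned reads to GRCm38 with STAR 2.5.2b, obtained gene-level counts with HTSeq 2.7 per the submitters' processing notes, and deposited a table of RPKM values with a column for each library, all of which entered the analysis. Groups follow the genotype label.

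With GENCODE M21 gene spans, the RPKM steps of 11917 genes (77.2%) gave whole reads within 0.05 read in every library, against 4.1% with exon lengths. For 3789 further genes the length was solved from the values, so reads were recovered for 15706 genes (99.1% of those with a value), summing to 95.7% to 99.0% of the library totals. The authors' test was DESeq2. Because RPKM values are not counts, limma 3.58.1 (R 4.3.3) was used in its place with a mean-variance trend on log2(RPKM + 0.1) for the 6512 genes whose mean reached 1 RPKM, genotype being the only term. This scale understates changes of weakly expressed genes. P values were Benjamini-Hochberg adjusted and called under 0.05. Intervals are 95% limma intervals. Limma voom on recovered reads was an alternative and called 499 of 11779 genes. Member and relative differences were tested by exact permutation (scipy 1.17.1), and figures were drawn with matplotlib 3.10.9.

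The members and gene lists were chosen with earlier results of these data known. Named genes are all members, Sel1l, their relatives, all regulators, the called genes of each list or, with none, the 2 of lowest p, and the 5 genes nearest in profile to Hspd1 and Lonp1. Other list genes named were picked after their values were seen, and a few list genes are not reported here. Scripts were tested on simulated data. Coordinates are 1-based GENCODE M21 (GRCm38). Motifs were searched in RefSeq windows of 300 bases.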

Additional observations from a re-analysis of the deposited data

Results flagged for a closer look

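Of 54 gene and genotype groups of 4 libraries examined (the members, their relatives and only a part of the other named genes), 1 held a library far from the other 3 by Dixon's criterion, where chance gives about 2.7 at 1 in 20. It was Trap1 in control, at 7.16 RPKM in replicate 4 against 6.45 to 6.55 in the others. Without that library the log2 fold change of Trap1 was 0.02.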

How the results depend on the processing

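No member was called under 21 of the 23 alternatives. The exceptions were array weights, with 1 member (Hspd1, log2 fold change -0.40), and replicates 3 and 4 only, with 2 (Hspd1 -0.59, Hspe1 -0.57). In replicates 1 and 2 only, the sign turned for Hspd1 (0.0673), Hspe1 (0.0474), Trap1 (0.0387), Yme1l1 (0.0488) and Htra2 (-0.0411). Trap1 also turned with median-of-ratios scaling (0.0025) and Clpx with quantile normalization (0.0077), and both turned when single libraries were left out, where Trap1 ranged from -0.0273 to 0.0225 (the latter without control replicate 4) and Clpx from -0.0603 to 0.0135 (the latter without CKO replicate 1). None of these turned values passed a threshold. Leaving out single libraries gave 243 to 317 called genes, lowest without control replicate 1, and 0 called members. The count of 344 called genes became 218 with a mean RPKM of at least 5, which tests fewer genes, 640 with array weights, 525 with the replicate set (numbers 1 and 2 against 3 and 4) as a term and 585 in replicates 1 and 2 only. Called genes of the pathway lists went from 5 to 8 with array weights. The cause was not tested for the other settings. The interaction of genotype and replicate set was added after the data were seen.

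For the pairs of member and relative, 2 libraries against 2 cannot give an exact permutation p under 0.333. Within replicates 1 and 2 the differences were -1.49 and 0.44 for Hspa9 against Hspa5 and Hspa8, -1.32 and 0.0671 for Trap1 against Hsp90b1 and Hsp90ab1, and -1.02 and 0.53 for Dnaja3 against Dnajb11 and Dnajb1. Within replicates 3 and 4 they were -1.70, 0.58, -1.41, 0.38, -0.85 and 1.58 in the same order. Leaving out single libraries gave 0.15 to 0.27 for Trap1 minus Hsp90ab1 (p up to 0.0571, lost without any control library or CKO replicate 3) and 0.83 to 1.30 for Dnaja3 minus Dnajb1 (p up to 0.114, lost without any CKO library).

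The replicate numbers were not treated as pairs, since the deviations of same-numbered libraries correlated at 0.16, 0.097, 0.44 and 0.0051 for numbers 1 to 4, not all over 0.1, and not every library correlated best with its own number. With the replicate number as a block, 317 genes and no member were called, 6 in place of 1 of the immediate early genes fell, and the pair differences were -1.60, 0.51, -1.37, 0.22, -0.93 and 1.05, each with p 0.125, the smallest for 4 pairs.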
